A study of Mus musculus with 4 samples.

Results

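Cell junction genes were described in mouse alveolar type II cells, epithelial cells of the lung that secrete surfactant, after a short culture. The genes were listed by name and role, with earlier results of these data known. They comprised 15 claudins, 7 other tight junction genes, 7 adherens junction genes, 10 desmosome and plakin genes and 2 gap junction genes. All 41 were found by Entrez identifier among the 28096 gene identifiers of the deposited tables. Pvrl1 is now named Nectin1.

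Type II cells had been sorted from mouse lung by surface protein, as EpCAM-positive cells without CD24, CD45, CD31 or podoplanin. They were then grown in matrigel, a basement membrane extract, in the bronchial medium BEGM with 100 nM 4OHT (4-hydroxytamoxifen, which activates CreERT2) for 4 days and without it for 1 day. All 4 libraries carry a single genotype label, KRasEtv wt. The study's design names 3 genotypes of 4 mice each, KRaswt/d12;RosaCreERT2 alone, with Etv5loxp/loxp, or with Etv4KO/KO and Etv5loxp/loxp. The KRaswt/d12 and RosaCreERT2 alleles are thus common to the whole design. RosaCreERT2 places the inducible recombinase under the broadly active Rosa26 locus. The labels do not tell which of the 3 genotypes is meant by KRasEtv wt, and the age and sex of the mice are not given. Libraries 1 to 4 are named in accession order. Since no label ties a library to a mouse, p-values measure the spread between these libraries, which may be technical.

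Tight junctions seal the space between epithelial cells. Claudins are four-pass membrane proteins that form the seal and set which ions cross it, and ZO proteins (Tjp genes) tie them to actin. In adherens junctions E-cadherin binds neighbouring cells and is linked to actin through catenins. In desmosomes the desmogleins and desmocollins are linked to keratin filaments through plakoglobin, plakophilins and desmoplakin, and connexins form gap junction channels. Alveolar epithelium is known for claudin-18, claudin-3 and claudin-4, and loss of claudin-18 makes the mouse alveolar barrier leaky.

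Levels are the authors' nRPKM, reads per gene adjusted for library size and for length, and are therefore per length. Total counts ranged from 12133251 to 13591876 per library, and where no read was counted, up to 3 remain possible, or 0.221 to 0.247 CPM. This limit covers counting error only. Type II identity was checked on 9 markers, all of which were at 1 nRPKM or more in every library, with a summed level of 9161, 15173, 20431 and 15414 nRPKM in libraries 1 to 4. Library 1 was the lowest of the 4 for all 9. Of 6 type I markers, 5 were also at 1 nRPKM or more in every library. Among them were Ager with 180, 127, 211 and 106 nRPKM and Pdpn, the podoplanin gene, with 16.2, 28.4, 21.4 and 18.4. Rtkn2 had only 0.150 to 0.624 nRPKM. The part of type I cells in the junction levels was not tested. The sum of 5 endothelial markers reached at most 0.797 nRPKM, with Emcn at 0 in library 2. Of 4 ciliated markers, Tekt1 was at 0 in libraries 2, 3 and 4, and Foxj1 reached at most 0.171 nRPKM. Dynlrb2 had 1.05, 1.31, 2.32 and 2.74 nRPKM in libraries 1 to 4, and Ccdc39 had 1.23, 1.25, 0.792 and 1.46 nRPKM. Library 3 stood apart in the X-linked RNA Xist, with 66.3 nRPKM against 0.293, 0.255 and 0.784 nRPKM in libraries 1, 2 and 4. Xist and its antisense partner Tsix were the 2 genes called variable between libraries below. They were also called without library 1 or library 4, but not without library 2 or library 3. Library 3 was also the lowest for Dsg3, Dsc2, Pkp1 and Cldn4, and any link to the Xist difference was not tested.

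Of the 41 junction genes, 28 were at or above 1 nRPKM in all 4 libraries, against 38.8% of all 28096 genes. The 28 were 6 claudins, all 7 other tight junction genes, all 7 adherens junction genes, 6 desmosome and plakin genes and both gap junction genes. Dsg3, Dsc2 and Pkp1 reached 1 nRPKM in the mean but not in every library. The other 10, Dsc3 and 9 claudins, had a mean below 1 nRPKM, of which Cldn8 (0.974) and Cldn2 (0.947) lay nearest to it. The median of the 41 mean levels was 6.40 nRPKM, against 0.345 nRPKM over all genes.

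Cldn18 was the predominant claudin transcript. Its level in libraries 1 to 4 was 426, 417, 467 and 369 nRPKM, and its reads numbered 18752 to 30506. The 4 values lay close together, with a mean of 420 ± 40.3 nRPKM (SD, n = 4), and placed the gene between rank 30 and rank 37 of all genes by level. Cldn18 made up 79.8 ± 3.42% of the summed claudin level (SD, n = 4), or 88.0 ± 2.21% of claudin reads without correction for length. Its level was 8.54 ± 2.46 times that of Cldn3 within a library, and the ranges of the 2 genes did not overlap.

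The Cldn18 gene is known for alternative first exons, one used in lung and the other in stomach, and the gene-level counts do not separate them. Both annotated starts are shown because the Cldn18 level is the sum over them. Each line gives the 250 bases before a start, 5′ to 3′, from RefSeq on GRCm38.p6, a build other than the authors' mm9. Capitals mark CAAGTG, a core sequence of NK-2 homeodomain factors such as Nkx2-1, searched on both strands.
Cldn18 farther start, chr9:99717268-99717517, minus strand: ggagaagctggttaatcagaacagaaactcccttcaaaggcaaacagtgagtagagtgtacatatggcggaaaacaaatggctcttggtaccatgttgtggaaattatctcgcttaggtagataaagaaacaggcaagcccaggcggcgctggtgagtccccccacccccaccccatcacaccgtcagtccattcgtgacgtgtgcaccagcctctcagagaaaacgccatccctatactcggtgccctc
Cldn18 nearer start, chr9:99710064-99710313, minus strand: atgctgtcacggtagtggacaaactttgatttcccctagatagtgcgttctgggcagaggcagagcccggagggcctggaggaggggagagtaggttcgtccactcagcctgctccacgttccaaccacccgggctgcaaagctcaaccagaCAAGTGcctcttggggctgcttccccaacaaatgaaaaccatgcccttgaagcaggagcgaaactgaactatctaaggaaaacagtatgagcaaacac
The motif occurred once before the nearer start and not before the farther one, and 11.6% of 32851 mouse promoters of this length hold it. Of 33 promoters of 24 junction genes, 15.2% held it, also those of Cldn7, Cldn1 and Cldn10. Cldn1 and Cldn10 were scarce, with means of 0.294 and 0.142 nRPKM. Which start is the one used in lung was not determined here. The match is a description of the sequence and does not show binding.

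Cldn3, a sealing claudin, came next with 51.7, 72.6, 55.5 and 31.4 nRPKM in libraries 1 to 4 (52.8 ± 16.9, SD, n = 4). Library 2 was the highest and library 4 the lowest, 2.31-fold apart. Cldn7, a claudin also found along the lateral membrane, had 24.8, 16.2, 25.6 and 11.4 nRPKM. Libraries 1 and 3 were the higher pair for Cldn7, and library 4 was again the lowest. Mitochondrial rRNA took 23.0, 35.1, 19.6 and 38.9% of all reads in libraries 1 to 4, lower in libraries 1 and 3, and its part in the Cldn7 level was not tested. Cldn18, Cldn3 and Cldn7 kept this order in all 4 libraries.

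Cldn6, known mainly from embryonic epithelium, had 18.3, 10.9, 6.78 and 10.7 nRPKM in libraries 1 to 4. Cldn4, which in alveolar epithelium is known to be induced by injury, had 19.4, 10.04, 5.24 and 7.82 nRPKM. Library 1 was the highest and library 3 the lowest for both, and their ranges overlapped, with Cldn6 above Cldn4 in 3 of 4 libraries. Cldn12, a claudin that lacks the usual PDZ-binding tail, had 13.02, 11.6, 8.99 and 7.99 nRPKM. The order of Cldn4, Cldn6 and Cldn12 differed between libraries: Cldn4 was the highest of them in library 1 and the lowest in the other 3.

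Cldn4 and Cldn6 were picked for their shared highest and lowest library, and the 250 bases before each start are shown, from RefSeq on GRCm38.p6. Capitals mark the E-box CACCTG, or its reverse complement, a sequence recognised by the Snail and Zeb repressors of epithelial genes.
Cldn4 start, chr5:134946935-134947184, minus strand: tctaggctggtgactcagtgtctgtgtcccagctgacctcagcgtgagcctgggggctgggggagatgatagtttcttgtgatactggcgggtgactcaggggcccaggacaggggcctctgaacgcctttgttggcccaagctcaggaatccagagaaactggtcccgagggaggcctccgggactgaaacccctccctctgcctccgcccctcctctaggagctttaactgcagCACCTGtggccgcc
Cldn6 start, chr17:23679115-23679364, plus strand: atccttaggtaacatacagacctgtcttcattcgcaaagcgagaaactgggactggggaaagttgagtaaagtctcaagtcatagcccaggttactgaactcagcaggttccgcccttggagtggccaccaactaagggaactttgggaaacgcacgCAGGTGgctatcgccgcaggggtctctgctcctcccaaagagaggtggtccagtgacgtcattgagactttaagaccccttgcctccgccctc
The E-box began 14 bases before the start of Cldn4 and 93 bases before that of Cldn6, and 17.2% of promoters of this length hold it. For 24 junction genes, 33 promoters were searched for 5 motifs on both strands, and no sites of different motifs overlapped. CACCTG was found in 27.3% of these, also before Cldn7, Epcam, F11r, Gjb2, Ocln and Tjp3, none of which had both the highest and the lowest library of Cldn4. Cldn1 had both, from 9 to 29 reads, and CACCTG was not found before its start. Pkp1 had both too, and its promoter was not among those searched. GGGCGG, the box of Sp1, was found in 63.6%, against 32.7% of all promoters, and CCGGAA, an ETS core, in 21.2% against 12.03%. AACNGGTT, a Grainyhead-like site, was found in 2 of 33, before Cgn and Cldn5, against 1.79% of all promoters. Several genes have more than 1 of the 33 promoters, and those of Cldn12, Ocln and Marveld2 overlap in sequence. These shares were not tested, nor was any part of the motifs in the library pattern. The matches describe the sequence and do not show binding.

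The remaining claudins were scarce. Cldn8 had 0.333, 0.932, 1.17 and 1.46 nRPKM and was lowest in library 1. Cldn2, a pore-forming claudin of leaky epithelia, had 0.887, 1.06, 0.958 and 0.887 nRPKM. Cldn1, a claudin of epidermis and airway, had 0.440, 0.418, 0.148 and 0.171 nRPKM from 29, 24, 10 and 9 reads. It was thus higher in libraries 1 and 2 than in libraries 3 and 4. Cldn23 rested on 4 to 9 reads, Cldn10 on 1 to 9 and Cldn15 on 2 to 3. The endothelial claudin gene Cldn5 had a single read in each of libraries 3 and 4 and none in the other 2. Cldn9, which directly neighbours Cldn6 on chromosome 17, had 1 read in library 3 only, and no read was counted for Cldn11. Of 11 further claudin genes measured, none reached 1 nRPKM in the mean and 7 had no read. Cldn20 was the highest of them at 0.418 ± 0.248 nRPKM (SD, n = 4), followed by Cldn22 and Cldn24.

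**Figure D1:**
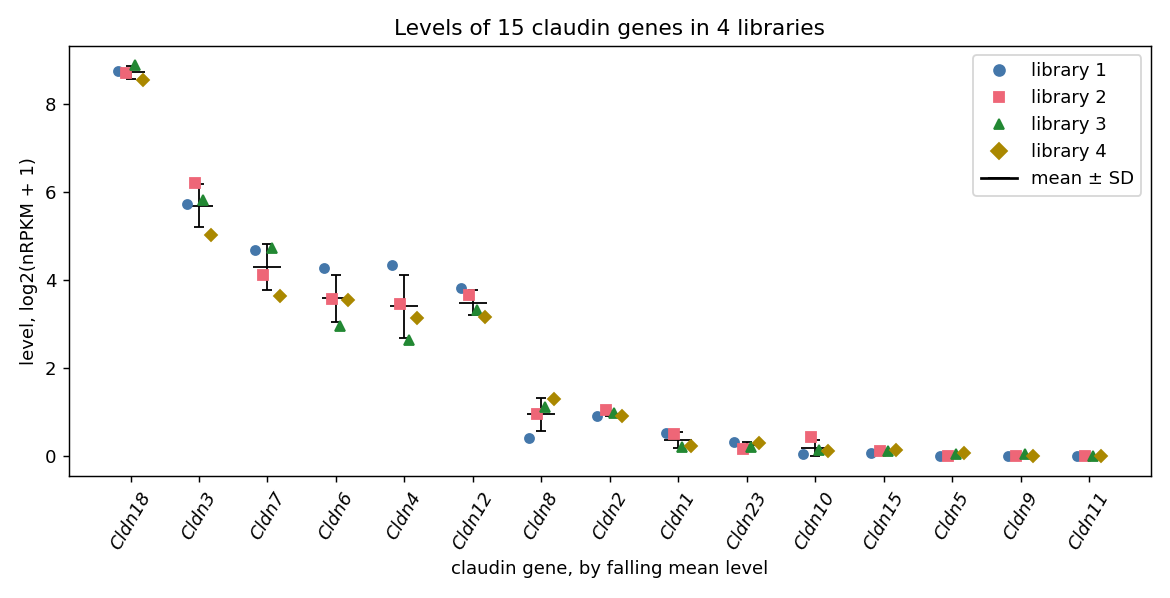
Levels of the 15 claudin genes as log2(nRPKM + 1), in order of falling mean. Each symbol is a library and the bars give the mean ± SD of the 4 libraries. Cldn18 lies above all others, Cldn3 and Cldn7 follow, and Cldn4, Cldn6 and Cldn12 overlap.

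Among the other tight junction genes, F11r and Tjp1 had the highest levels. F11r, which encodes the adhesion molecule JAM-A, had 57.9, 77.6, 75.1 and 71.0 nRPKM in libraries 1 to 4. Tjp1, the ZO-1 scaffold gene, had 25.4, 33.6, 31.01 and 37.3 nRPKM. Both were lowest in library 1. Its paralog Tjp3 had 1.99, 3.33, 3.09 and 2.25 nRPKM. Tjp1 exceeded Tjp3 by 3.17 ± 0.27 on the log2 scale (SD, n = 4), in all 4 libraries.

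The 3 tight junction MARVEL genes had like levels. Ocln (occludin) had 7.19, 4.96, 6.40 and 7.04 nRPKM, and Marveld2 (tricellulin, of tricellular contacts) had 6.08, 5.15, 6.98 and 7.37 nRPKM. Ocln and Marveld2 are neighbours on chromosome 13, and Ocln was the higher of them in library 1 but not in libraries 2, 3 and 4. Their difference, Marveld2 minus Ocln, was -0.00018 ± 0.14 on the log2 scale (p = 1 in the exact sign-flip permutation test, n = 4). Marveld3 had 7.21, 7.96, 7.48 and 9.51 nRPKM, and lay above Ocln in 4 of 4 libraries by 0.29 ± 0.25. Cgn, the gene of the junction linker cingulin, had 10.1, 7.21, 10.7 and 10.9 nRPKM. It shares 20.1% of its 50-base words with another annotated gene, so its level is uncertain.

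Of 20 further tight junction and polarity genes, 18 had at least 1 nRPKM in every library. Highest were the polarity kinase gene Prkci (56.4 ± 7.76 nRPKM) and the cingulin paralog Cgnl1 (30.7 ± 7.67; SD, n = 4). Jam2 and Jam3, the paralogs of F11r, had 1.05 ± 0.604 and 0.347 ± 0.164 nRPKM.

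The genes of the E-cadherin and catenin complex were the most abundant of the 41 after Cldn18. Cdh1 (E-cadherin) had 146, 140, 170 and 133 nRPKM in libraries 1 to 4, a mean of 147 ± 15.97 (SD, n = 4). Ctnna1 (alpha-catenin, which links the complex to actin) had 116, 99.1, 133 and 145 nRPKM, and Ctnnd1 (p120 catenin, which holds cadherin at the membrane) had 67.1, 87.4, 82.5 and 79.9. No library was highest for all 3: library 3 led for Cdh1, library 4 for Ctnna1 and library 2 for Ctnnd1. Ctnnb1, the beta-catenin gene and not among the 41, was higher than Cdh1 in every library at 242 ± 30.8 nRPKM. In the annotation used for the check, 69.5% of the 50-base words of Ctnnd1 also belong to the overlapping gene model Gm28635, so the Ctnnd1 level is uncertain.

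Cldn18 and Cdh1 kept a near-constant proportion. Their ratio was 2.92, 2.97, 2.75 and 2.78 in libraries 1 to 4, or 2.86 ± 0.107 (SD, n = 4). This ratio was singled out after the values were seen. The ratio of Cldn18 to Cldn4, by contrast, was 22.0, 41.5, 89.0 and 47.1.

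Jup, the gene of plakoglobin, a catenin of both adherens junctions and desmosomes, had 50.4, 65.4, 52.6 and 42.5 nRPKM. Jup lay below its paralog Ctnnb1 by 2.19 on the log2 scale (difference of Jup minus Ctnnb1, -2.19 ± 0.38, SD, n = 4), in all 4 libraries. Epcam, the adhesion gene used to sort the cells, had 58.0, 55.8, 52.7 and 50.1 nRPKM and the narrowest range of the junction genes with a mean of at least 1 nRPKM, 1.16-fold. Pvrl1 (nectin-1, an adhesion molecule that recruits afadin) had 2.08, 4.00, 2.65 and 1.35 nRPKM, a 2.97-fold range with library 2 highest and library 4 lowest. Pvrl2 and Pvrl3, its paralogs, were higher at 22.4 ± 3.89 and 13.4 ± 3.47 nRPKM.

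Cdh3 (P-cadherin, a cadherin of basal cells) had 1.24, 1.30, 1.64 and 1.03 nRPKM from 67 to 137 reads. Cdh1, its neighbour on chromosome 8, was 114 ± 11.2 times as high (SD, n = 4). The log2 difference of Cdh1 and Cdh3 was 6.01 ± 0.04, with the smallest SD of the 20 pairs tested. This SD was wider with a pseudocount of 0.1 (0.12) and in CPM (0.095). Of 15 further adherens junction genes, 10 had at least 1 nRPKM in every library, among them Ctnnb1 and Pvrl2. Cdh2 (N-cadherin) and the endothelial Cdh5 were at 0.178 ± 0.0955 and 0.0910 ± 0.0709 nRPKM.

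**Figure D2:**
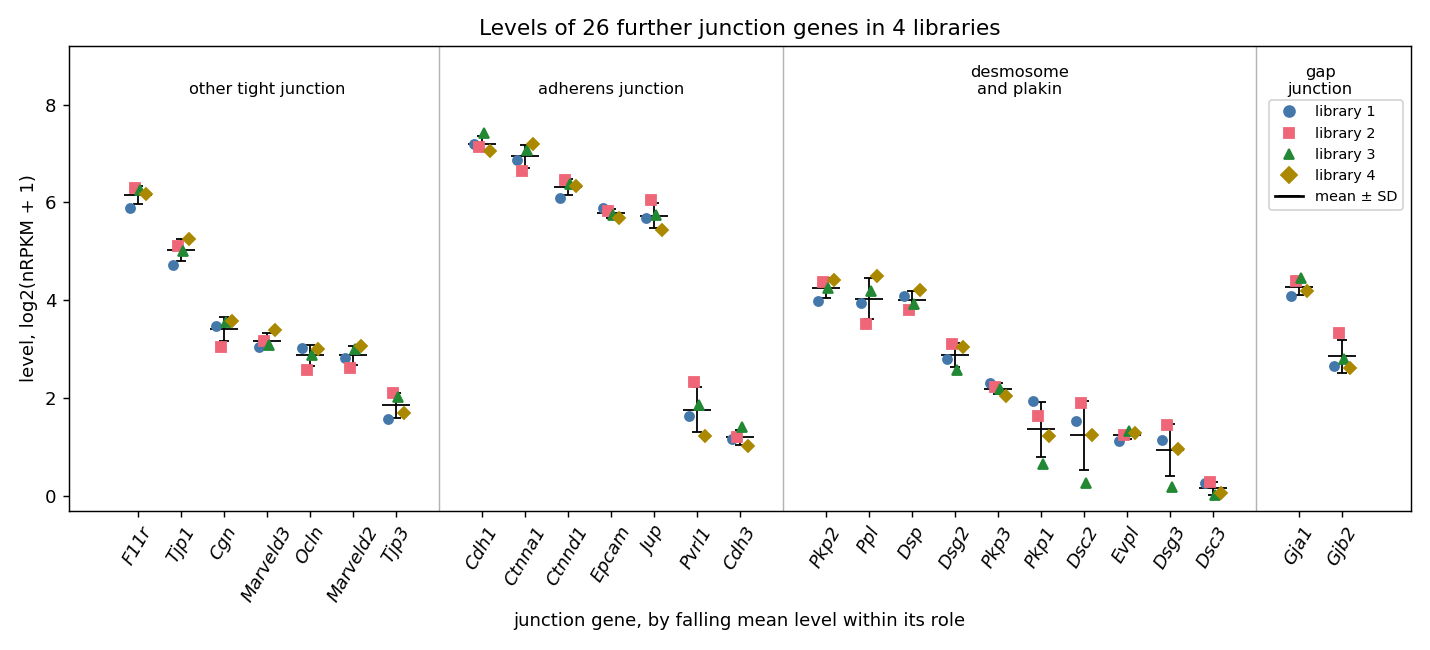
Levels of the 26 junction genes other than claudins as log2(nRPKM + 1), by role and falling mean. Each symbol is a library and the bars give the mean ± SD. Within the desmosome genes, Pkp1, Dsc2 and Dsg3 have their lowest value in library 3, while Pkp2, Ppl and Dsp lie higher and closer together.

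Desmosome genes differed in level and in spread. Pkp2 (plakophilin-2) had 14.7, 19.8, 17.9 and 20.4 nRPKM and Dsp (desmoplakin, which binds keratin filaments) had 15.9, 12.99, 14.2 and 17.5 nRPKM. Dsg2, the desmoglein of simple epithelium, had 5.96, 7.57, 4.98 and 7.28 nRPKM. Pkp3 had 3.96, 3.68, 3.53 and 3.10 nRPKM. These 4 genes stayed within a 1.52-fold range over the libraries. Dsg2 and Dsp share 5.07% and 4.72% of their 50-base words with other gene models.

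Dsg3, Dsc2, Dsc3 and Pkp1 were lower and less even. Dsg3, a desmoglein of stratified epithelium and the pemphigus vulgaris antigen, had 1.21, 1.74, 0.140 and 0.956 nRPKM from 101, 127, 12 and 64 reads. Dsc2, a desmocollin of both simple and stratified epithelium, had 1.89, 2.74, 0.205 and 1.36 nRPKM from 170, 215, 19 and 98 reads. For both, library 2 was the highest and library 3 the lowest, 12.5-fold apart for Dsg3 and 13.3-fold for Dsc2. Dsc3, a desmocollin of basal layers, had 21, 21, 1 and 4 reads, at 0.194, 0.223, 0.00900 and 0.0463 nRPKM. Pkp1, the plakophilin of stratified epithelium, had 2.85, 2.10, 0.564 and 1.33 nRPKM, highest in library 1 and lowest in library 3. All 4 genes were higher in libraries 1 and 2 than in library 4, and higher in library 4 than in library 3.

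The ratio of Dsc2 to Dsg3 was 1.57, 1.57, 1.47 and 1.42 in libraries 1 to 4, or 1.51 ± 0.0730 (SD, n = 4), although each gene ranged over 12-fold. This ratio, too, was singled out after the values were seen. Dsg2 had the same highest and lowest library as Dsg3 and Dsc2 but a 1.52-fold range, and its ratio to Dsg3 was 4.94, 4.35, 35.7 and 7.62. Within the desmocollins, Dsc2 exceeded Dsc3 in all 4 libraries by 1.08 ± 0.58 on the log2 scale, which understates low genes.

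Markers of several other cell types were also lowest in library 3, among them those of basal cells, the keratin 5 progenitors of the airway. The sum of the 6 basal markers was 150, 103, 20.9 and 48.4 nRPKM in libraries 1 to 4. All 6 were lowest in library 3, 5 of 6 were highest in library 1 and none was at 0. For Krt15 the margin was narrow, with 0.916 nRPKM (33 reads) in library 3 against 0.982 nRPKM (30 reads) in library 2. Ngfr rested on 3 reads in each of libraries 3 and 4. Krt5 had 70.6, 37.9, 8.22 and 19.4 nRPKM, and Trp63 (p63, the defining factor of basal cells) had 1.08, 0.707, 0.150 and 0.375 nRPKM. The ratio of Pkp1 to Krt5 was 0.0404, 0.0553, 0.0686 and 0.0683, and that of Dsg3 to Krt5 was 0.0171, 0.0460, 0.0170 and 0.0492. Markers of mesenchyme (28.5, 17.2, 5.18 and 12.2 nRPKM summed over 6 genes) and of mesothelium (39.7, 23.0, 11.6 and 15.2 over 4 genes) had the same highest and lowest library as the basal sum. Of the mesothelium genes, however, Wt1 and Gpm6a were lowest in library 2. Club cell markers summed to 316, 1059, 150 and 280 nRPKM over 4 genes, with none at 0, highest in library 2 and lowest in library 3 as were Dsg3 and Dsc2. Scgb1a1 alone had 239, 880, 93.0 and 188 nRPKM of this sum, and Cyp2f2 was lowest in library 1. Endothelial markers summed to 0.797, 0.218, 0.161 and 0.547 nRPKM over 5 genes and leukocyte markers to 67.2, 57.3, 25.3 and 15.96 over 5 genes. Cdh3, by contrast, was highest in library 3. The part of these cells in the junction levels was not tested. In bulk samples, fewer cells of a type and less RNA per cell cannot be told apart.

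Cldn4 and Cldn6 shared the order of the basal marker sum at its ends. Perp, a desmosome-associated target of p63 and p53 that was in the list of 7 further desmosome genes, had 36.1, 21.3, 13.1 and 19.3 nRPKM and the same highest and lowest library. The ratio of Cldn6 to Perp was 0.506, 0.509, 0.517 and 0.552 in libraries 1 to 4, and that of Cldn4 to Perp was 0.537, 0.471, 0.400 and 0.405. Both ratios were chosen after the values were seen. The ratio of Cldn4 to Krt5 was 0.275, 0.265, 0.638 and 0.403, highest in library 3, where both genes were lowest. Besides Perp, only Pnn (24.1 ± 7.72 nRPKM, SD, n = 4) of the further desmosome genes reached 1 nRPKM, and no read was counted for Dsg1a, Dsg1c, Dsg4 or Dsc1.

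**Figure D3:**
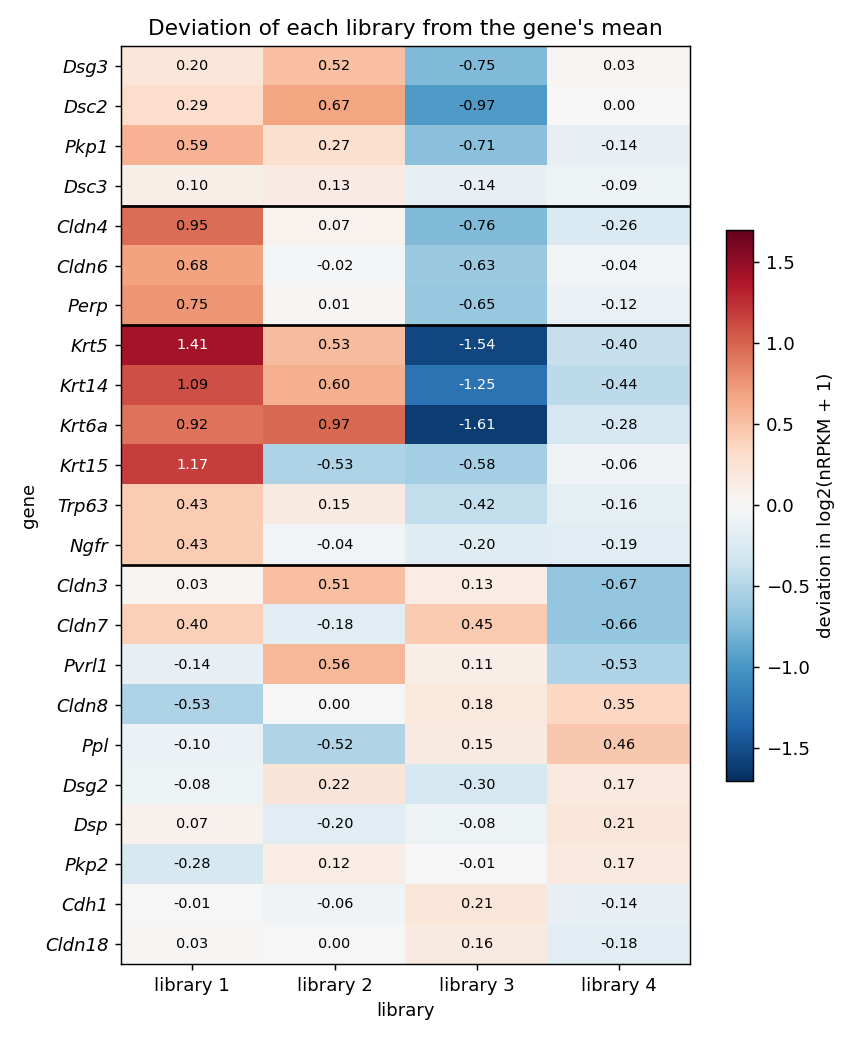
Deviation of each library from the gene's mean over the 4 libraries, in log2(nRPKM + 1). Blocks from the top are Dsg3, Dsc2, Pkp1 and Dsc3, then Cldn4, Cldn6 and Perp, then the 6 basal markers, then other junction genes. The first 3 blocks are blue in library 3, while Cldn3, Cldn7 and Pvrl1 have their lowest value in library 4.

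The plakins differed from each other. Ppl (periplakin) had 14.3, 10.5, 17.2 and 21.6 nRPKM, with library 4 highest and library 2 lowest. Evpl (envoplakin, its partner in the cornified envelope of skin) had 1.19, 1.37, 1.51 and 1.43 nRPKM. Ppl exceeded Evpl in all 4 libraries by 2.79 ± 0.39 on the log2 scale (SD, n = 4).

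Of the connexins, Gja1 (connexin 43) had 16.1, 19.99, 20.96 and 17.2 nRPKM and Gjb2 (connexin 26) had 5.33, 9.04, 5.999 and 5.10 nRPKM. Gja1 lay above Gjb2 in all 4 libraries by 1.43 ± 0.26 on the log2 scale. Of 17 further connexin genes, 4 had a mean of at least 1 nRPKM, among them Gjb1 (1.90 ± 1.13 nRPKM, SD, n = 4), and 7 had no read.

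Differences between 20 pairs of related genes were tested within libraries on log2(nRPKM + 1). In 19 of 20 pairs the same gene was higher in all 4 libraries, each with p = 0.13 (two-sided exact sign-flip permutation test, n = 4) and an adjusted p of 0.132. This is the smallest p that 4 libraries allow, so no pair could pass 0.05. Cldn18 exceeded Cldn3 by 3.02 ± 0.41, Cldn7 by 4.42 ± 0.40 and Cldn4 by 5.31 ± 0.75 (SD, n = 4). Cldn4 minus Cldn3 was -2.29 ± 0.82, Cldn7 minus Cldn3 was -1.40 ± 0.49 and Cldn4 minus Cldn7 was -0.89 ± 0.81. Dsg2 exceeded Dsg3 by 1.94 ± 0.36 and Dsc2 by 1.65 ± 0.52, or by 3.23 and 2.66 in CPM. Dsc2 exceeded Dsc3 by 2.68 with a pseudocount of 0.1, against 1.08 with 1. Without library 3, Cldn4 minus Cldn7 was -0.49. Pkp2 exceeded Pkp3 by 2.06 ± 0.30, and Pkp3 exceeded Pkp1 by 0.83 ± 0.51. Marveld3 exceeded Ocln by only 0.0029 in library 1, and by 0.20 on average without library 2.

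**Figure D4:**
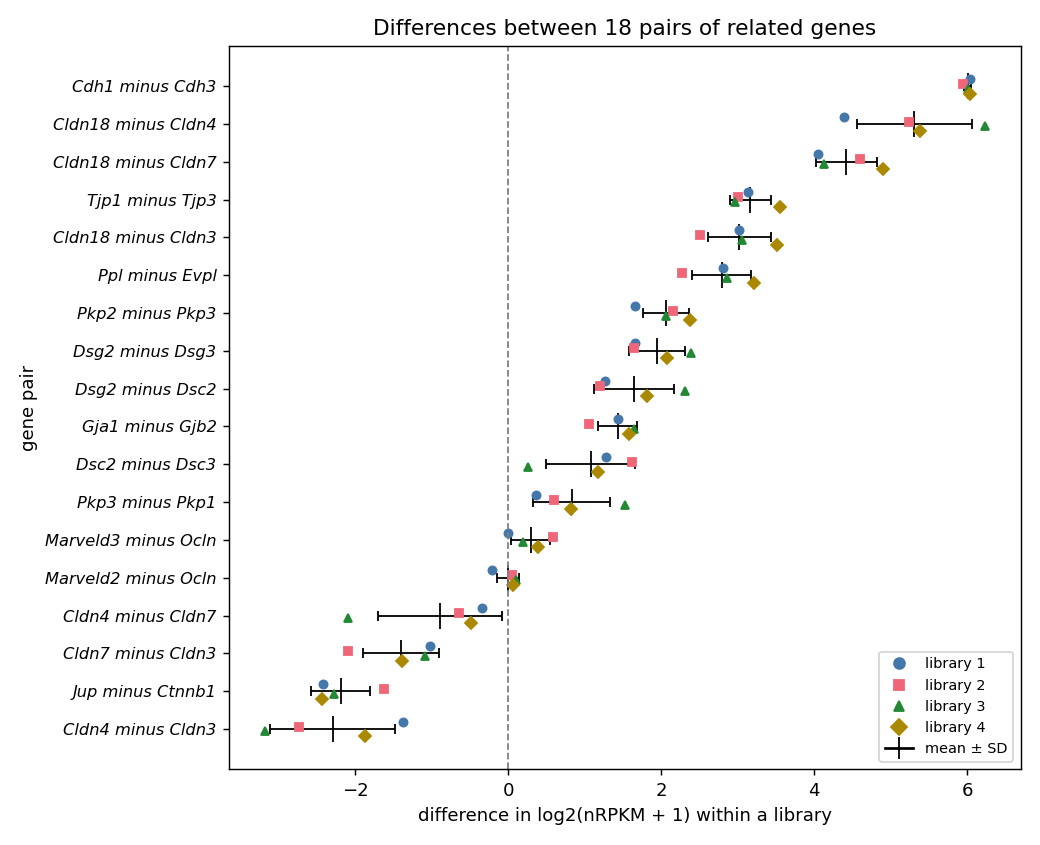
Differences in log2(nRPKM + 1) between the 2 genes of each of 18 of the pairs, first minus second, with a symbol for each library and the mean ± SD. Of the pairs shown, only Marveld2 minus Ocln has symbols on both sides of 0, and Cdh1 minus Cdh3 has the narrowest spread.

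Between libraries, 9 of the 31 junction genes with a mean of at least 1 nRPKM had a highest library at least 2 times the lowest, against 22.8% of the 11904 such genes overall. The 9 were Dsc2, Dsg3, Pkp1, Cldn4, Pvrl1, Cldn6, Cldn3, Cldn7 and Ppl. Ppl lay just inside the threshold at 2.06-fold and Gjb2 just outside at 1.77-fold. By role, 4 of 6 claudins and 4 of 9 desmosome and plakin genes were among them, with 1 of 7 adherens junction genes and none of the 7 other tight junction or 2 gap junction genes. The median range was 1.51-fold over the 31 genes and 1.58-fold over all. Without library 2 the count was 5, against 15.7% of all such genes, and without library 4 it was 5, against 13.6%.

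In the edgeR quasi-likelihood test of spread beyond the trend, none of the 33 junction genes with enough reads was called at an adjusted p under 0.05, against 0.0152% of the 13156 genes tested. An unadjusted p under 0.05 was found for 6 of the 33, against 5.13% of all genes tested. By edgeR they were Dsc2 (adjusted p = 0.467), Dsg3 (adjusted p = 0.529), Cldn4 (adjusted p = 0.708), Pkp1 (adjusted p = 0.709), Pvrl1 (adjusted p = 0.929) and Cldn6. All but Pvrl1 were lowest in library 3. Without library 3, junction genes with an unadjusted p under 0.05 numbered 3 of 33, against 619 of 13360 genes in all. With another library left out they numbered 5 to 7, against 640 to 696 genes in all. DESeq2 listed Dsg3 and Dsc2 among 62 of 13156 genes with outlying dispersion, and without the filter on low counts Dsc2 was called by edgeR (adjusted p = 0.0190), as were 66 of 20579 genes in all. Without library 3, the edgeR adjusted p of Dsc2 and of Dsg3 was 0.989. Cldn18 (adjusted p = 0.998), Epcam (adjusted p = 0.998) and Cdh1 (adjusted p = 0.997) were far from the threshold in the same edgeR test.

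**Figure D5:**
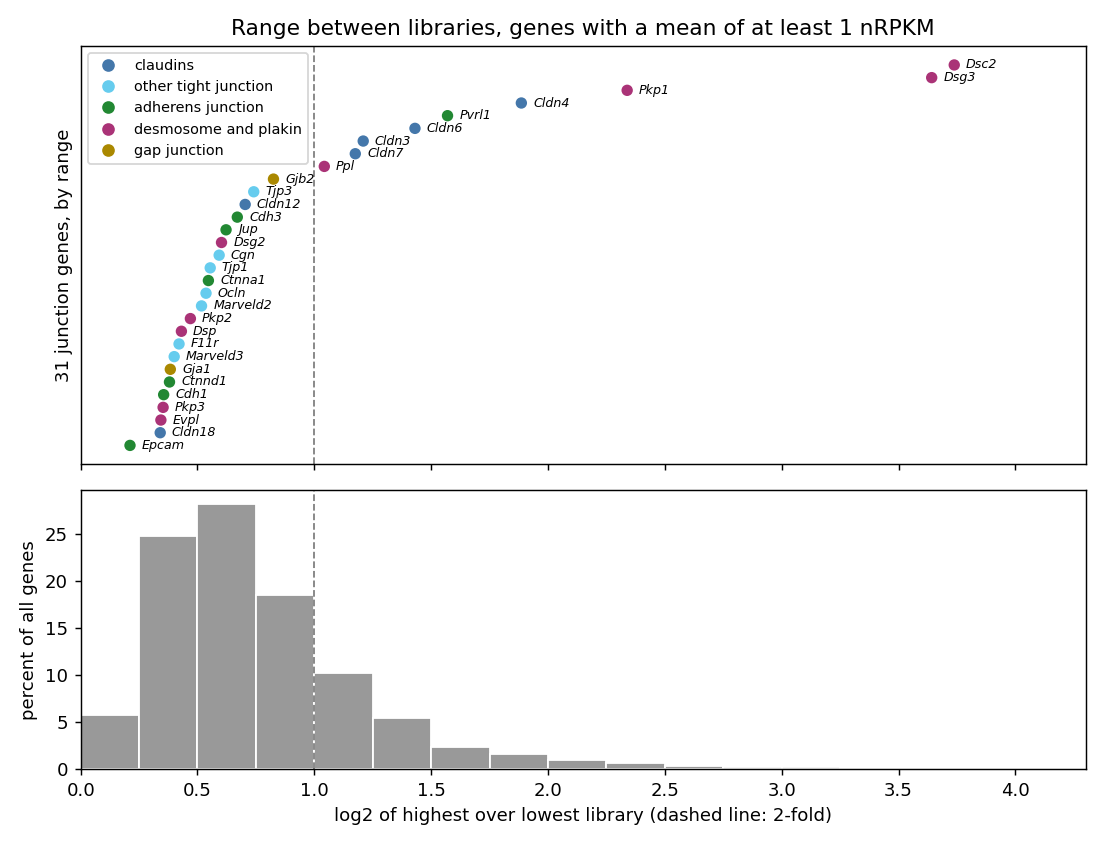
Range between libraries, as log2 of the highest over the lowest library, for the 31 junction genes with a mean of at least 1 nRPKM (upper panel, coloured by role) and for all 11904 such genes (lower panel, bars give the percent of genes). The 9 genes right of the dashed line exceed 2-fold, and Dsc2 and Dsg3 lie farthest out.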

How the data were processed

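Polyadenylated RNA of 4 libraries of the label KRasEtv wt was analysed. The authors deposited, per the file headers, a count of uniquely aligned reads per gene model and a size-factor-adjusted RPKM (nRPKM) for 28096 identifiers. Per the submitters' processing notes, GSNAP and mm9 were used; the sources used here give neither annotation nor strand use. In the files, nRPKM equals count times a library factor over a gene length. Symbols came from RefSeq GRCm38.p6 by Entrez identifier (25035 found), used for names only. Cldn25 was not analysed here. Shared 50-base words were counted on GENCODE transcripts (GRCm38) over both strands.

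Pairs were tested on log2(nRPKM + 1) by an exact two-sided permutation test that flips signs, Benjamini-Hochberg adjusted over 20 pairs. The values of 2 pairs and of a few further genes are not reported here. Spread was tested on the deposited counts with edgeR 4.0.16 in R 4.3.3, checked on simulated data. Settings were intercept only, TMM, filterByExpr, quasi-dispersion over the trended prior against F and a threshold of 0.05. DESeq2 1.42.0 was used to flag outlying dispersion, not as a test. Counts of library pairs differed by 39.4 to 114 times sampling noise, so each was used as a library of its own, though repeat preparations of a mouse could also exceed that noise. Members, lists and pairs were chosen with earlier results of these data known. Named genes are all 41 members, the 3 highest of each further list where reported, genes used in pairs and genes called variable. Jam2, Jam3, Pvrl3, Cdh2, Cdh5 and the desmosome genes without a read were chosen after their values were seen. Tubb1, a platelet gene, was then dropped from the ciliated marker list. The summed level was 405.6 to 547 nRPKM for 6 type I markers, 150 to 1059 for 4 club, 2.56 to 4.25 for 4 ciliated and 16.0 to 67.2 for 5 leukocyte markers. Alternatives were other pseudocounts, thresholds, scalings and filters, CPM, and leaving out each library.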

Additional observations from a re-analysis of the deposited data

Results flagged for a closer look

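Of 63 sets of 4 values examined (41 levels, 20 pair differences and 2 claudin shares), 2 had a library that stood apart from the other 3. By chance about 1 in 20, or 3.15 of 63, would if the sets were independent. They were not, because the pair differences and shares are built from gene levels, so the 2 numbers cannot be weighed against each other. Cldn9 had 0.0333 nRPKM in library 3, which is 1 read, and 0 in the other 3, so a single read set it apart. The difference Cldn4 minus Cldn7 was -2.09 log2 units in library 3, against -0.64 to -0.34 in the other 3. In library 3, Cldn4 was at its lowest level (5.24 nRPKM) and Cldn7 at its highest (25.6 nRPKM).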

How the results depend on the processing

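In 19 of 20 pairs the direction of the mean stayed with a pseudocount of 0.1, with CPM in place of nRPKM and without each library. Dsg2 minus Dsg3, Dsg2 minus Dsc2, Dsc2 minus Dsc3 and Cldn4 minus Cldn7 changed by over 1.5 times in CPM. In library 1, Cldn4 had more reads than Cldn7 (716 against 695), and Pkp1 more than Pkp3 (261 against 246). In CPM these pairs were therefore not of 1 direction in all 4 libraries (p = 0.25 each, exact sign-flip permutation test). Marveld2 minus Ocln reversed, at 5.1e-05 with a pseudocount of 0.1 and 0.0804 in CPM, and ranged from -0.0360 to 0.0701 with a library left out. Values this near 0 turn with small shifts. In counts without length correction, Cldn18 made up 88.03% and Cldn3 4.42% of claudins, against 79.8% and 9.89% of nRPKM; the deposited lengths are the only difference. Junction genes with a 2-fold range numbered 5 among genes with a mean of at least 5 nRPKM, against 18.4% of all genes, and 5 to 7 with a library left out, against 13.6 to 18.2% of all genes. Junction genes called variable numbered 2 by DESeq2 (62 of 13156 genes in all) and 1 without the filter on low counts (66 of 20579), against 0 by edgeR (2 of 13156), and the cause was not tested. They numbered 0 without each library, with 0 to 6 calls over all genes. The count of 28 genes expressed stayed within 1.5 times under each alternative. No paired analysis was possible because there is a single group. Genes under about 10 reads, among them Cldn5, Cldn9, Cldn10, Cldn11, Cldn15 and Cldn23, are at the limit of this depth.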
